A study of Danio rerio with 4 samples.

Results

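Zebrafish larvae carry pigment cells of 3 kinds, and 9 genes that mark them were followed by RNA-seq in the mCherry-positive fraction of dissociated whole larvae. The genes were found by name among the 42298 genes of the deposited tables, and all 9 were present. They were 4 genes of melanin (tyr, tyrp1b, dct and pmela), 2 regulators (mitfa and csf1ra), 2 genes of pteridine synthesis (gch2 and xdh) and 1 gene of purine metabolism (pnp4a). The rule that picks them is a list of names and uses no measured value, but the list was drawn up with earlier results of these data known. The series comprised 4 libraries from larvae at 5 dpf (days postfertilization). In 2 of them the genotype was wild type, and in the other 2 it was alms1-/-, a homozygous mutation of the zebrafish ortholog of the human Alström syndrome gene. Both groups carried the transgene Tg(ins:mCherry), in which the preproinsulin promoter drives the red reporter in β-cells, and the methods name Tubingen as the wild-type strain. No treatment is given. Each library was made from the pooled cells of many larvae, and it is not stated whether the duplicates are separate sorts. What the p-values measure is thus the spread between these libraries alone, which may be technical.

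Pigment cells of zebrafish arise from the neural crest. Black melanophores make melanin inside melanosomes, where tyrosinase and its relatives oxidize tyrosine along a fibrous scaffold. Yellow xanthophores colour themselves with pteridines, made from GTP, and with carotenoids taken up from the diet. Iridophores reflect light from stacked plates of guanine, for which they run purine synthesis at a high rate. Melanin is also made by the retinal pigment epithelium of the eye, csf1ra is also a gene of macrophages, and xdh also acts in the general breakdown of purines. The melanin genes, csf1ra and xdh are thus not the property of a single cell type in a whole larva.

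The libraries held 42761199 to 50467517 reads on genes. Values for single genes are given below as reads and as normalized CPM, edgeR's counts per fixed library size (CPM) after TMM scaling. The labelled cell type was checked first. Of 14 β-cell markers, 6 were detected in both wild-type libraries, meaning 10 or more reads at 1 TPM or more, and 13 in both mutant libraries, and their summed level was 147 to 149 normalized CPM in wild type, against 189 to 205 in the mutants. Of these markers 3 were called higher in the mutants, 7 with library size alone, 11 on log2(TPM + 1), and 2 in the main test and also without each library in turn. The insulin gene ins itself had 0.433 and 1.70 normalized CPM in the wild-type libraries against 10.8 and 7.26 in the mutant ones. In wild type these were 20 and 61 reads, at 0.752 and 1.86 TPM, so ins was not among the markers detected there. The β-cell markers with the highest mean level, slc30a8, neurod1 and pcsk1, were not called. In wild type they had 36.2 and 41.8, 40.5 and 33.2, and 24.0 and 23.6 normalized CPM, and the summed level rests largely on them. Their log2 fold changes in edgeR were -0.19 (adjusted p = 0.541), -0.50 (0.134) and 0.67 (0.0611). Over all genes tested, the main test called 19.2% higher and 24.3% lower. Without either mutant library the calls over all genes also became fewer, as given in the last section. The share of all genes whose call held without each library in turn was not computed. Counts of calls without a library thus only describe the lists, here and below. With library size alone 29.0% of all genes were called higher, and on log2(TPM + 1) 35.2%. The 12 skin markers summed to 53380 and 58139 in wild type, against 5714 and 6237 in the mutants, where 12 of 12 were called lower. Of 7 skeletal muscle markers 5 were called higher in the mutants, but 0 without mutant replicate 1, 1 without mutant replicate 2 and 1 with the replicate number as a block. Of 6 erythroid markers 2 were called higher, but 0 without mutant replicate 1 and 0 without mutant replicate 2. The targeted gene alms1 stood at 24.9 and 23.1 normalized CPM in wild type, compared with 8.98 and 18.4 for the mutants (log2 fold change -0.81, standard error 0.37, adjusted p = 0.104 in edgeR). Transcripts of a mutated gene may persist, and the value does not settle the labels. In bulk RNA, fewer cells of a type and less RNA per cell cannot be told apart.

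All 9 pigment cell genes were read in every library, at low levels. TPM, which divide reads by the length of the gene, were used to order the genes, and in these files that length was the whole span from gene start to gene end. In wild type the levels lay close together at the top, with gch2 at 3.44 ± 1.46 TPM (SD, n = 2), tyrp1b at 2.89 ± 0.641, mitfa at 2.66 ± 1.62, pnp4a at 2.62 ± 1.08 and pmela at 2.51 ± 1.1002. The ranges of these 5 genes overlapped, and they were the 5 of 9 that were called detected. Next came xdh at 1.15 ± 0.507 and csf1ra at 1.04 ± 0.421, both of whose libraries lay below those of pmela. tyr at 0.549 ± 0.316 and dct at 0.328 ± 0.143 closed the order. From xdh to dct the 2 libraries of each gene overlapped in range with those of the next. In the mutants 9 of 9 were detected, and the order was tyrp1b (10.7 ± 2.96 TPM, SD, n = 2), gch2 (9.35 ± 6.60), pmela (8.70 ± 2.87), xdh (8.39 ± 3.02), mitfa (6.73 ± 0.417), pnp4a (5.76 ± 1.48), dct (3.61 ± 1.72), csf1ra (2.31 ± 0.932) and tyr (2.28 ± 1.15). Each gene in that order overlapped in range with its neighbours. Detection was also more common over all genes in the mutants. The same limits were passed by 22812 and 18392 genes in the wild-type libraries, against 25442 and 27041 in the mutant ones.

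Of the 9 genes, 3 were called higher in the mutants and 0 lower by the quasi-likelihood test of edgeR, at an adjusted p of 0.05 over all 28079 genes tested. The 3 were dct, xdh and tyrp1b. Over all genes tested, 19.2% were called higher and 24.3% lower, so that calls were common in this comparison. At an unadjusted p under 0.05, 4 members were higher and 0 lower, but the share of all genes at that unadjusted limit was not computed. These counts thus only describe the members and cannot be set against the shares of adjusted calls. By DESeq2 and limma 0 members were called lower as well. DESeq2 called 4 members higher, where it called 22.2% of all genes higher and 26.1% lower. On uniquely mapped reads 3 were higher and 0 lower, where 20.3% and 25.2% of all genes were called. In normalized CPM both mutant libraries lay above both wild-type libraries for 6 members and below them for 0, compared with 39.1% and 37.8% of all genes. In TPM they lay above for 9 of 9, compared with 58.0% of all genes. The median log2 fold change of the 9 genes was 0.83, compared with 0.03 over all genes tested and with -0.23 over the 13013 protein-coding genes whose span lay within the range of the members (14.2% of these called higher, 30.0% lower). The scaling of the libraries bears on all of these values. With library size alone 29.0% of all genes were called higher and 12.8% lower, and on log2(TPM + 1) 35.2% and 5.87%, with medians over all genes of 0.57 and 0.69, and under each of these scalings 5 members were called higher, tyr and pmela being added.

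**Figure D1:**
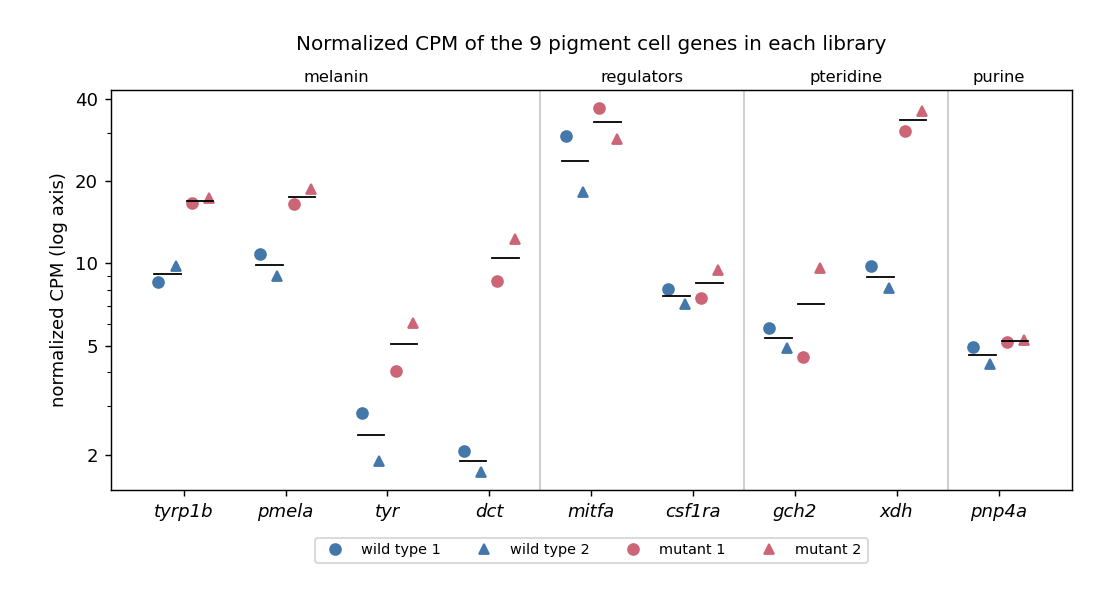
Normalized CPM (log axis) of the 9 pigment cell genes in the 2 wild-type libraries (blue) and the 2 alms1 mutant libraries (red), with circles for replicate 1, triangles for replicate 2 and black lines for the group means. The groups do not overlap for 6 genes, by the widest margin for dct (2.06 and 1.72 against 8.63 and 12.3) and xdh (9.75 and 8.09 against 30.4 and 36.2), and they overlap for mitfa, csf1ra and gch2.

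In normalized CPM the 4 melanin genes stood higher in both mutant libraries, and the size of the difference varied among them. Relative to the long-gene level described below, only dct did, while pmela was lower and tyrp1b and tyr overlapped. dct encodes dopachrome tautomerase, which converts dopachrome on the way to eumelanin, and lies on the plus strand of chromosome 9 of GRCz10 from 53788137 to 53813085. It had 95 reads in the first wild-type library (exact Poisson 95% interval 76.9 to 116) and 62 in the second (47.5 to 79.5), and 426 (387 to 468) and 757 (704 to 813) in the mutants. In normalized CPM these were 2.06 and 1.72, a mean of 1.89 ± 0.237 (SD, n = 2), and 8.63 and 12.3, a mean of 10.5 ± 2.59. Both mutant libraries lay above both wild-type libraries, and the lower mutant value was 4.19 times the higher wild-type value. Its log2 fold change came to 2.47 (standard error 0.44, adjusted p = 0.00362), at percentile 96.7 of all genes tested. The call held without each library in turn (adjusted p = 0.000863 to 0.0319). Of the reads of dct, 98.9% and 95.2% were uniquely mapped in wild type, against 93.2% and 86.5% in the mutants, and on uniquely mapped reads the log2 fold change was 2.33 (adjusted p = 0.00287).

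tyrp1b, whose product is a tyrosinase-related protein of the melanosome, lies on the plus strand of chromosome 1 from 18639866 to 18653113. It had 393 and 353 reads in wild type, against 817 and 1069 in the mutants. In normalized CPM these were 8.52 and 9.82 (9.17 ± 0.918, SD, n = 2) and 16.6 and 17.4 (17.0 ± 0.576), and the groups did not overlap. Its log2 fold change of 0.89 (standard error 0.31, adjusted p = 0.0475) lay just inside the threshold. The call did not hold without wild-type replicate 1 (adjusted p = 0.0763), wild-type replicate 2 (0.0603), mutant replicate 1 (0.153) or mutant replicate 2 (0.186), although the log2 fold change stayed between 0.85 and 1.00.

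pmela, which encodes the protein of the melanosome's fibrous scaffold, lies on the plus strand of chromosome 11 from 3186437 to 3203441. It had 497 and 323 reads in wild type, against 810 and 1148 in the mutants, or 10.8 and 8.98 and then 16.4 and 18.7 normalized CPM. The groups did not overlap, but the log2 fold change of 0.83 (standard error 0.31, adjusted p = 0.0599) missed the threshold. It passed by DESeq2 (adjusted p = 0.0261). Without 1 library its log2 fold change in edgeR ran from 0.71 (wild-type replicate 2 left out) to 1.06 (wild-type replicate 1 left out). tyr encodes tyrosinase, which starts melanin synthesis from tyrosine, and lies on the plus strand of chromosome 15 from 43776250 to 43795340. It had the fewest reads of the melanin genes in the mutants, with 131 and 68 in wild type and 200 and 372 there. Its normalized CPM were 2.84 and 1.89 in wild type, against 4.05 and 6.05 in the mutants, without overlap. The log2 fold change of 1.09 had a standard error of 0.51 and did not pass (adjusted p = 0.112). Summed over the 4 genes, melanin reads were 24.2 and 22.4 normalized CPM in wild type, against 45.7 and 54.4 in the mutants.

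Of the pteridine genes, xdh rose and gch2 did not pass the test. xdh encodes xanthine dehydrogenase, which oxidizes purines and pteridines, and lies on the plus strand of chromosome 17 from 33388263 to 33421878. It had 450 and 291 reads in wild type, against 1501 and 2225 in the mutants. In normalized CPM these were 9.75 and 8.09 (8.92 ± 1.17, SD, n = 2) and 30.4 and 36.2 (33.3 ± 4.06), and the lower mutant value was 3.12 times the higher wild-type value. Its log2 fold change came to 1.90 (standard error 0.29, adjusted p = 0.00185), and it passed without each library in turn (adjusted p = 0.000154 to 0.0194). All reads of xdh were uniquely mapped. gch2 encodes the GTP cyclohydrolase that opens pteridine synthesis in xanthophores, and lies on the plus strand of chromosome 12 from 24994484 to 25001207. It had 267 and 177 reads in wild type, against 225 and 593 in the mutants, or 5.79 and 4.92 and then 4.56 and 9.64 normalized CPM. The mutant libraries lay on either side of both wild-type libraries, and a log2 fold change of 0.41 was fitted (standard error 0.48, adjusted p = 0.504). Without mutant replicate 2 it was -0.23 (adjusted p = 0.796).

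The purine gene and the regulators did not pass the test. pnp4a encodes a purine nucleoside phosphorylase that marks iridophores, and lies on the plus strand of chromosome 11 from 24052514 to 24060085. It had 228 and 154 reads in wild type, against 255 and 324 in the mutants. Its 4.94 and 4.28 normalized CPM in wild type, against 5.17 and 5.27 in the mutants did not overlap, but they differed by a log2 fold change of 0.18 (standard error 0.43, adjusted p = 0.755). mitfa, the transcription factor gene without which zebrafish form no melanophores, lies on the plus strand of chromosome 6 from 43396040 to 43435759. It was the member with the most reads in wild type, 1343 and 657, and had 1825 and 1755 in the mutants. Its normalized CPM were 29.1 and 18.3 in wild type, against 37.0 and 28.5 in the mutants, and the second mutant library lay below the first wild-type library. Its log2 fold change came to 0.47 (standard error 0.31, adjusted p = 0.240). Without 1 library it ran from 0.18 (wild-type replicate 2 left out) to 0.93 (wild-type replicate 1 left out). csf1ra, the receptor gene on which xanthophore dispersal depends, lies on the minus strand of chromosome 14 from 3170823 to 3202038. It had 372 and 255 reads in wild type, against 368 and 583 in the mutants, or 8.06 and 7.09 and then 7.46 and 9.47 normalized CPM. These overlapped, with a log2 fold change of 0.16 (standard error 0.38, adjusted p = 0.749).

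**Figure D2:**
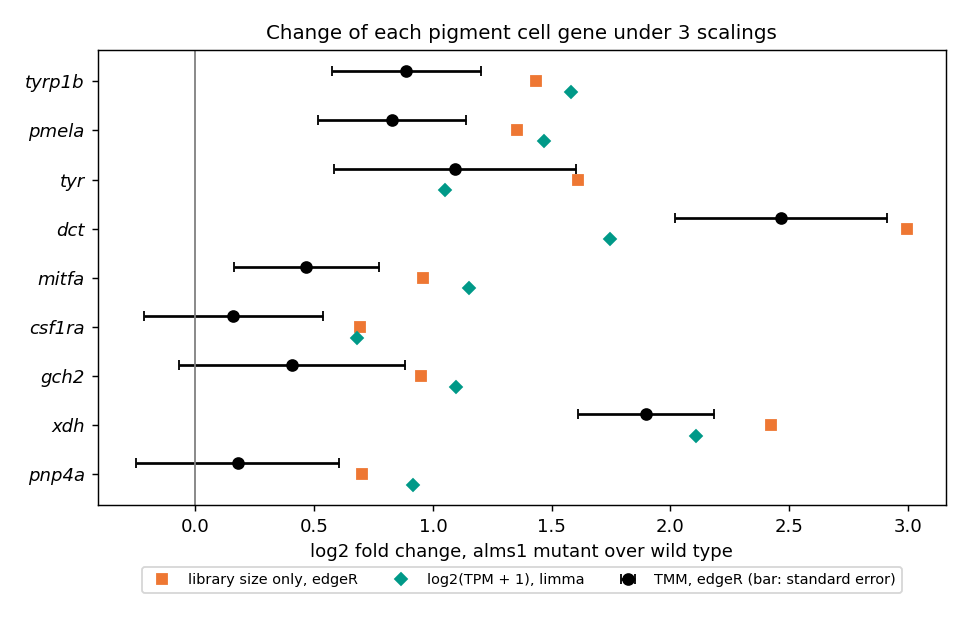
Log2 fold change of alms1 mutant over wild type for each of the 9 genes under 3 scalings: TMM in edgeR (black, bars are standard errors), library size only (orange) and log2(TPM + 1) in limma (green). All points lie above 0, and dct and xdh lie farthest to the right under TMM, at 2.47 and 1.90.

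Without mutant replicate 2 the log2 fold changes of csf1ra and gch2 fell below 0, and under the scalings plotted all 9 stayed above it. The median of all genes also lay higher under both other scalings, as given above. Ratios of reads between members within 1 library do not depend on any such scaling. For each read of tyrp1b there were 0.242 and 0.176 reads of dct in wild type, against 0.521 and 0.708 in the mutants, without overlap. The corresponding ratio of pmela to tyrp1b was 1.26 and 0.915 in wild type, against 0.991 and 1.07 in the mutants, and that of tyr to tyrp1b was 0.333 and 0.193 and then 0.245 and 0.348, so that both overlapped. For each read of gch2 there were 1.69 and 1.64 reads of xdh in wild type, against 6.67 and 3.75 in the mutants. The reads of tyrp1b per read of pnp4a were 1.72 and 2.29 in wild type, against 3.204 and 3.30 in the mutants. In these libraries the ratios of dct to tyrp1b, of xdh to gch2 and of tyrp1b to pnp4a thus did not overlap between genotypes. In each of these pairs the first gene has the longer span, 24949 against 13248 bp, 33616 against 6724 bp and 13248 against 7572 bp. It is also the longer one in the overlapping pairs of pmela (17005 bp) and tyr (19091 bp) with tyrp1b. The ratio of pmela to pnp4a, again with the longer gene first, did not overlap. In pairs with mitfa (39720 bp) as the second gene, the first gene is the shorter one. For each read of mitfa there were 0.0707 and 0.0944 reads of dct in wild type, against 0.233 and 0.431 in the mutants. The reads of xdh per read of mitfa were 0.335 and 0.443, then 0.822 and 1.27. Neither of these ratios overlapped, whereas that of tyrp1b to mitfa did. Reads were counted over whole spans, and the part that span has in these ratios was not tested. Only chosen pairs of members were taken, and the share of other gene pairs without overlap was not computed. With 2 libraries against 2, an exact permutation test of such a ratio cannot give a two-sided p below 0.333, and none was run.

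**Figure D3:**
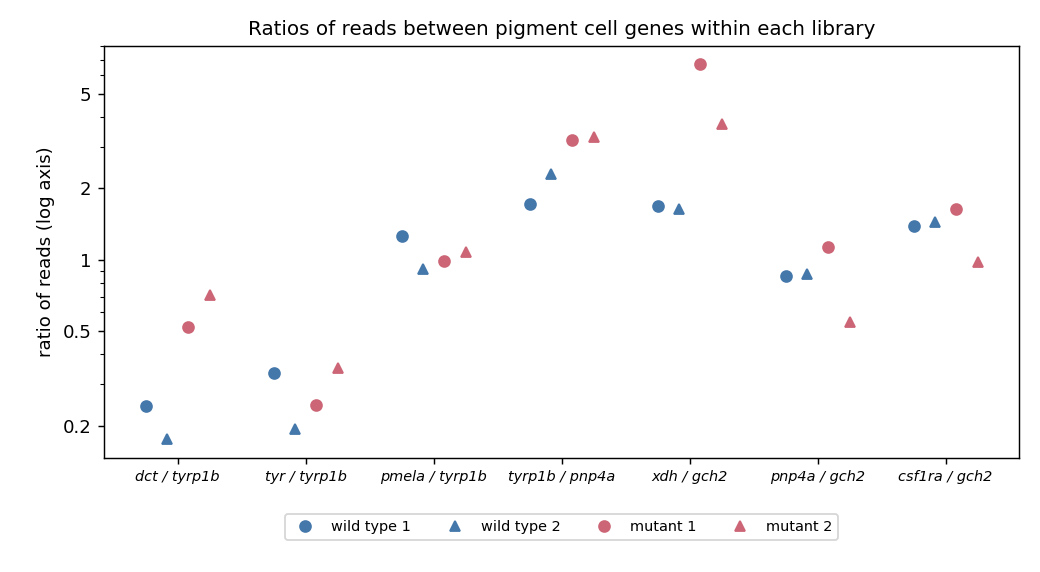
Ratio of the reads of the first-named gene to those of the second (log axis) in each library, with wild type in blue, mutants in red, circles for replicate 1 and triangles for replicate 2. The groups stand apart for dct / tyrp1b, tyrp1b / pnp4a and xdh / gch2, and they overlap for tyr / tyrp1b, pmela / tyrp1b, pnp4a / gch2 and csf1ra / gch2.

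The reads of these genes were counted over whole spans of 6724 bp (gch2) to 39720 bp (mitfa), introns included, and no read in the files was counted across an exon-exon junction. As a yardstick of the reads that long genes hold, a long-gene level was taken in each library. It is the 10th percentile, over 1509 protein-coding genes 80 to 160 kb long, of reads per kb. This level was 8.03 and 5.23 in the wild-type libraries, and 15.0 and 21.8 in the mutant libraries. In wild type dct stood at 0.474 and 0.475 times this level and tyr at 0.855 and 0.682 times, below it in both libraries, whereas gch2 stood at 4.95 and 5.04 times and tyrp1b at 3.70 and 5.10 times. In the mutants dct passed the level, at 1.14 and 1.39 times, while tyr (0.698 and 0.895) and csf1ra (0.786 and 0.858) lay below it. xdh went from 1.67 and 1.66 times the level to 2.98 and 3.04 times. On this measure 2 genes, dct and xdh, were higher in both mutant libraries than in both wild-type libraries. Another 5 (pmela, mitfa, csf1ra, gch2 and pnp4a) were lower, and tyrp1b and tyr overlapped. The share of all genes that lay higher or lower on this measure was not computed, so these numbers only describe the members. After subtraction of the level from every gene, dct kept 0 reads in wild type, against 52 and 214 in the mutants, tyr kept 0 in every library, and xdh kept 180 and 115 in wild type, against 997 and 1493 in the mutants (log2 fold change 3.31, adjusted p = 0.0227). tyrp1b kept 287 and 284 and then 618 and 781, which did not pass (log2 fold change 1.51, adjusted p = 0.0582). The part that reads over long spans have in the changes was not tested. None of the 9 genes overlapped another annotated gene.

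**Figure D4:**
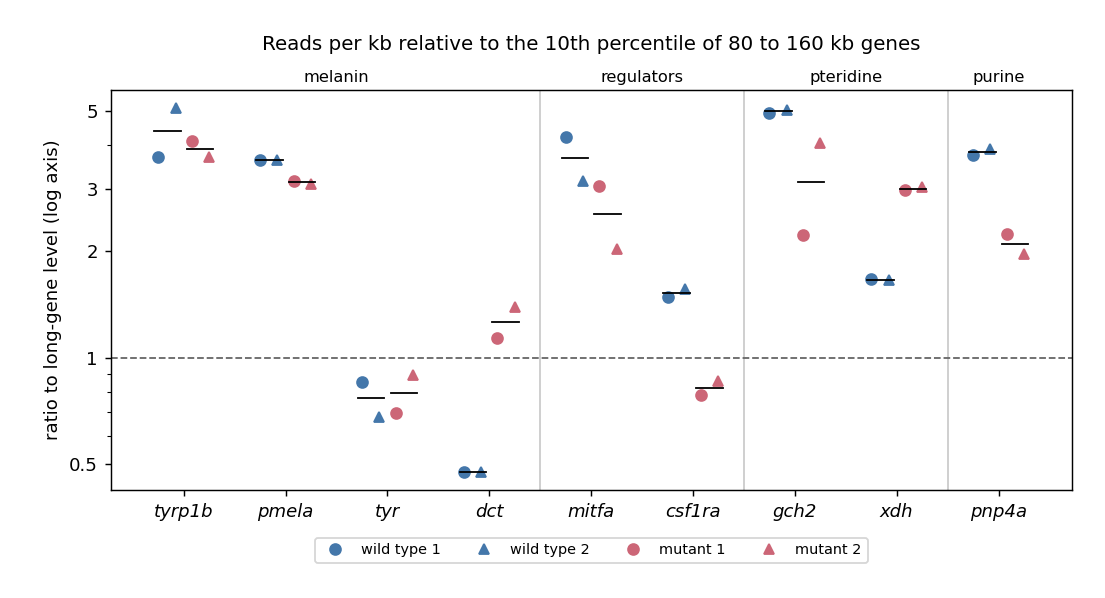
Reads per kb of each gene divided by the long-gene level of the same library (log axis, dashed line at 1), with wild type in blue, mutants in red and black lines for the group means. dct lies below the line in wild type (0.474 and 0.475) and above it in the mutants (1.14 and 1.39), tyr stays below it, and xdh goes from 1.67 and 1.66 to 2.98 and 3.04.

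Ranks within a library gave another reading for some of the genes. Among the genes with reads, dct stood at percentiles 9.37 and 8.76 of reads per kb in wild type and at 29.5 and 39.1 in the mutants, and xdh at 31.3 and 30.1 and then at 65.7 and 73.6. Higher ranks in both mutant libraries were also found for pmela (percentiles 54.5 and 50.8, then 68.2 and 74.4) and tyr (16.9 and 12.9, then 18.3 and 24.9), although against the long-gene level pmela was lower and tyr overlapped. tyrp1b moved from percentiles 54.9 and 59.2 to 77.2 and 79.98. mitfa (percentiles 58.5 and 47.3, then 66.8 and 56.1) and gch2 (62.7 and 58.9, then 53.9 and 82.3) overlapped between genotypes. pnp4a overlapped too, at percentiles 55.3 and 52.7 in wild type, against 54.2 and 54.5 in the mutants, and csf1ra was lower in both mutant libraries, at 28.1 and 28.7 and then at 20.7 and 23.8. How many of all genes shifted in rank without overlap was not computed.

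Beside the members stood other genes of the same pathways. With library size alone 29.0% of all genes were called higher and 12.8% lower, with a median log2 fold change of 0.57. On log2(TPM + 1) these were 35.2% and 5.87%, with a median of 0.69. Counts and medians of the lists under these scalings stand beside these values. Of 18 further genes of melanin synthesis and the melanosome, 16 were in the files and 15 were tested, of which 4 were called higher and 2 lower (compared with 19.2% and 24.3% of all genes), with a median log2 fold change of 0.78. The median was 1.27 with library size alone, where 9 were called higher and 1 lower, and 1 and 1 (oca2 and rab27a) passed in the main test and without each library in turn. oca2, which encodes a melanosome transporter, had 59.2 and 37.5 normalized CPM in wild type, against 156 and 125 in the mutants (log2 fold change 1.54, adjusted p = 0.00373), over a span of 176963 bp. myo5aa, for the myosin that carries melanosomes, had 43.3 and 56.3 and then 80.6 and 94.0 (0.81, adjusted p = 0.0249), and its call did not hold without mutant replicate 1 (0.0833) or mutant replicate 2 (0.178). rab32a, for a small GTPase of melanosome traffic, fell from 39.6 and 55.6 to 19.98 and 20.07 (-1.25, adjusted p = 0.00704), with an adjusted p of 0.0532 without mutant replicate 2. rab27a, for another small GTPase of melanosome transport, fell too (-2.04, adjusted p = 0.00756), but it had no uniquely mapped read. Of 15 tested genes for the assembly of lysosome-related organelles, 1 was called higher and 3 lower, with a median of -0.27 that became 0.27 with library size alone and 0.64 on log2(TPM + 1). They were dtnbp1b, a BLOC-1 gene (1.095, adjusted p = 0.00788), and vps18 (-1.77, adjusted p = 0.00389), vps39 (-1.02, adjusted p = 0.0322) and vps11 (-0.96, adjusted p = 0.0391), whose products act together in tethering complexes of late endosomes and lysosomes. Of these 4 only vps18 passed without each library in turn. The call of dtnbp1b was lost without either mutant library (adjusted p = 0.05005 and 0.0554), that of vps39 without mutant replicate 1 (0.183), mutant replicate 2 (0.0594) or wild-type replicate 2 (0.157), and that of vps11 without mutant replicate 1 (0.144), mutant replicate 2 (0.138) or wild-type replicate 1 (0.214).

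Of 17 transcription factor and lineage genes tested beside mitfa, 3 were called higher and 3 lower, with a median log2 fold change of 0.03. Over all genes 19.2% and 24.3% were called in this test. With library size alone it was 29.0% and 12.8% of all genes, with a median of 0.57. With library size alone 6 were called higher and 1 lower (median 0.56), and 1 (pax7b) and 1 (tfap2a) passed without each library in turn. tfap2a, a gene of neural crest and epidermis, fell from 117 and 142 normalized CPM to 33.2 and 30.1 (-2.03, adjusted p = 0.000752), and pax7b, a regulator of xanthophores, rose from 41.4 and 30.5 to 83.3 and 85.3 (1.23, adjusted p = 0.00516). tfec was called higher as well (0.86, adjusted p = 0.0430), but only 27.5% of its reads were uniquely mapped. On uniquely mapped reads its adjusted p in edgeR was 0.653, and 2 genes of this list were called higher and 2 lower. alx4a had 42.6 and 47.3 in wild type, against 24.7 and 22.2 in the mutants (-0.94, adjusted p = 0.0147), with an adjusted p of 0.0704 without mutant replicate 1 and 0.121 without mutant replicate 2. sox10, the gene needed for neural crest pigment cells as a whole, was lower as well (-2.04, adjusted p = 0.0102, and 0.0536 without mutant replicate 1), but no read of it was uniquely mapped. Of 15 tested receptors and ligands beside csf1ra, 3 were higher and 3 lower, with a median of 0.29. With library size alone 7 were called higher and 3 lower (median 0.83), and 0 of the higher and 3 of the lower calls (csf1rb, kitlga and asip1) held without each library in turn. csf1rb, the second zebrafish copy of the CSF1 receptor gene, fell from 103 and 186 to 31.7 and 27.0 (-2.30, adjusted p = 0.00128), unlike csf1ra in its call, a difference that was not tested. kitlga, for a ligand of the melanophore receptor Kit, fell from 114 and 128 to 42.5 and 30.1 (-1.74, adjusted p = 0.00161). asip1, for the agouti signalling protein that opposes melanin synthesis, fell from 22.4 and 30.0 to 9.65 and 8.19 (-1.56, adjusted p = 0.00508). The endothelin gene edn3b, whose ligand acts on iridophores, rose from 4.42 and 5.95 to 13.1 and 33.1 (2.16, adjusted p = 0.00744, and 0.0867 without mutant replicate 2). The other genes called higher here were kita and kitb, for Kit receptors. The call of kita was lost without either mutant library, and that of kitb without mutant replicate 2.

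Of 17 genes tested from the pteridine and carotenoid list, 4 were called higher and 3 lower, with a median of -0.13. It became 0.43 with library size alone and 0.76 on log2(TPM + 1), where 7 were called higher and 0 lower. Over all genes 19.2% and 24.3% were called in the main test, and 35.2% and 5.87% on log2(TPM + 1). The median of all genes was 0.57 with library size alone and 0.69 on log2(TPM + 1). Without each library in turn 1 higher call (slc2a15b) and 2 lower calls (qdpra and pcbd1) held. qdpra and pcbd1, whose products regenerate tetrahydrobiopterin, fell, with log2 fold changes of -1.66 (adjusted p = 0.00301) and -1.81 (adjusted p = 0.00473). slc2a15b, a solute carrier gene needed for leucophores in medaka, rose from 26.2 and 23.4 to 64.8 and 53.9 (1.26, adjusted p = 0.00467). slc2a11b, a related carrier gene, had 6.85 and 4.98 in wild type, against 17.7 and 16.4 in the mutants (1.53, adjusted p = 0.00890, and 0.0506 without mutant replicate 1). Beside pnp4a, 21 genes of purine synthesis and iridophores were tested, of which 2 were called higher and 8 lower, and the 2 and 6 of the 8 passed without each library in turn. The median of this list was -0.61, with library size alone -0.09, and on log2(TPM + 1) it was 0.36, with 4 called higher and 1 lower. pnp5a, a relative of pnp4a, fell from 715 and 555 normalized CPM to 80.4 and 96.8 (-2.84, adjusted p = 0.000525). pnp6, another relative, rose from 4.16 and 4.98 to 23.2 and 20.9 (2.27, adjusted p = 0.00158). hprt1, of purine salvage, and paics, of purine synthesis, fell, with log2 fold changes of -1.92 (adjusted p = 0.00150) and -2.08 (adjusted p = 0.00219).

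**Figure D5:**
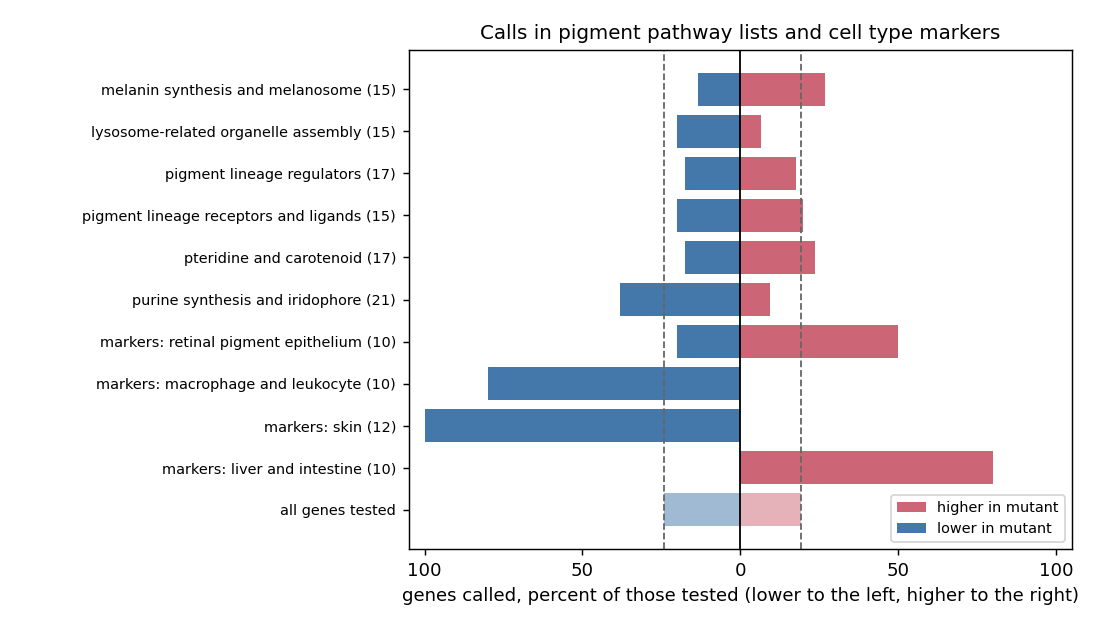
Share of the tested genes (number in parentheses) of each list that was called higher (red, to the right) or lower (blue, to the left) in the mutants, with dashed lines at the 19.2% and 24.3% of all genes tested. For purine synthesis 8 of 21 were called lower and 2 higher, but on log2(TPM + 1) 1 lower and 4 higher. On that scale 5.87% of all genes were called lower and 35.2% higher. For melanin synthesis and melanosome 4 of 15 were called higher, next to 4 of 17 for pteridine and carotenoid, both close to the share of all genes.

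Markers of other cells that express these genes moved between the genotypes too. Their counts stand beside 19.2% of all genes called higher and 24.3% called lower in the main test. With library size alone 12.8% of all genes were called lower, and on log2(TPM + 1) 5.87%. The retinal pigment epithelium makes melanin. Its 10 markers summed to 83.2 and 67.4 normalized CPM in the wild-type libraries and 114 and 134 in the mutant ones. Most of this difference lay in stra6 (25.2 and 15.9, then 53.9 and 53.0) and rdh5 (8.02 and 8.54, then 16.8 and 32.1). Of the 10 markers, 5 were called higher and 2 lower. The 5 became 2 without wild-type replicate 2, 3 without mutant replicate 1 and 1 without mutant replicate 2, and 1 higher (stra6) and 1 lower (otx2) call held without each library in turn. The smallest adjusted p was that of otx2, a transcription factor gene of this epithelium and of the brain, which fell from 14.1 and 12.5 to 3.55 and 3.09 (-2.002, adjusted p = 0.00444). lrata, a gene of the visual cycle, was lower as well (-1.79, adjusted p = 0.0163, but 0.0874 without mutant replicate 1 and 0.0611 without mutant replicate 2). Those called higher included stra6, the gene of a retinol transporter (1.38, adjusted p = 0.00624), and rdh5, a retinol dehydrogenase gene (1.56, adjusted p = 0.0106, and 0.126 without mutant replicate 2). rpe65b, at 15.2 to 17.9 in wild type and 11.7 to 17.0 in the mutants, was not called. otx2, lrata and rpe65a, the defining visual cycle gene of this tissue, were named after their values were seen. rpe65a had 2.38 and 1.34 in wild type, against 4.13 and 6.42 in the mutants (1.501, adjusted p = 0.0521). Of 10 macrophage and leukocyte markers 8 were called lower, with sums of 572 and 584 in the wild-type libraries and 231 and 206 in the mutant ones, whereas csf1ra was not called. The log2 fold changes of these 10 ran from -2.57 to -0.10, with 5 called lower with library size alone and 1 on log2(TPM + 1). On uniquely mapped reads 8 were called lower and 1 higher, where 25.2% and 20.3% of all genes were. Of 10 liver and intestine markers, tissues in which xdh also acts, 8 were called higher, with sums of 254 and 356 in the wild-type libraries and 1065 and 762 in the mutant ones. The 8 became 5 without mutant replicate 1, and 4 held without each library in turn. Of 8 markers of Schwann cells and oligodendrocytes, the first of which share the neural crest origin of pigment cells, 6 were called lower, 4 without mutant replicate 1, 4 without mutant replicate 2 and 0 on log2(TPM + 1) (median -0.52). No marker of these lists stood at 0 reads in all libraries. The part that these cells have in the values of the pigment cell genes was not tested.

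Among the 108 other tested genes of the pigment lists, the profile over the 4 libraries closest to that of dct was that of xdh, with a Euclidean distance of 0.247 between centred log2(CPM + 1) values, followed by pnp6 (0.512) and edn3b (0.694). Closest to gch2 were hps6 (0.202), gpr143 (0.271) and crestin (0.435), and closest to pnp4a were tyrp1a (0.175), csf1ra (0.203) and sox5 (0.245). hps6 and tyrp1a had at most 1.54 and 1.04 normalized CPM in any library, and genes that low vary little on this scale. dct, at 2.06 and 1.72 in wild type, was low there too, so its distances also depend on the 1 added to CPM. These distances rest on 4 libraries and are a description.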

How the data were processed

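The mCherry-positive fractions of 2 wild-type and 2 alms1-/- samples were compared. The authors aligned paired fragments with CLC Genomics Server to GRCz10, the build named in the submitters' processing notes. The gene annotation is not given in the sources used here. The deposited counts are whole reads per gene, and the deposited TPM and RPKM were computed by the authors' program from reads per kb. RPKM were not used. Counts were taken as all exon reads, or as all gene reads for the 15924 genes without an annotated exon. For 99.4% of genes the exon length equals the gene span. Nextera XT does not mark strand. Chromosome numbers come from the symbols shared with a gene table of GRCz12tu, and no coordinate was taken from it. Sequences of the genes were not used here.

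Genotypes were compared with edgeR 4.0.16 in R 4.3.3 (TMM, filterByExpr at default settings, quasi-likelihood F test, Benjamini-Hochberg adjustment at 0.05, no replicate block). The standard error is the log2 fold change divided by the square root of F. Fold changes are given for mutant relative to wild type. Across genes the fit estimated a biological coefficient of variation of 0.340. Before use, the test was checked on simulated counts for the direction of the fold changes only, which does not measure its error rate in these data. Intervals of reads cover counting error only. Their width is set by the number of reads of the gene in that library. The alternatives used limma 3.58.1, DESeq2 1.42.0, uniquely mapped reads, other filters and scalings, and each library left out. Python 3.11.15 and matplotlib 3.10.9 drew the figures.

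The members and lists were chosen with earlier results of these data known. Named were the 9 members, up to 4 genes of each pathway list with the smallest adjusted p, the nearest profiles, and alms1. Markers with the highest mean level were named for the retinal pigment epithelium and for β-cells. The other marker lists are described without naming single markers. kita, kitb, tfec, otx2, lrata, rpe65a and ins were added after their values were seen. Of the 9 members, 9 passed the filter on low counts.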

Additional observations from a re-analysis of the deposited data

How the results depend on the processing

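The calls of dct and xdh held under all alternatives run that tested them (15 each). For dct 1 of the 15, the subtraction of the long-gene level (log2 fold change 10.15, adjusted p = 0.0412), rests on 0 reads in both wild-type libraries and on the prior count, and is no bound. Of the members, 0 were lower under all alternatives but 1. The number of members called higher, 3 of 9, became 5 with library size alone and 5 on log2(TPM + 1). Among genes with a span under 10 kb, where 2 members (gch2 and pnp4a) could be tested, it was 0. Without each library in turn it was 2 to 4, and with the replicate number as a block it was 2, the call of tyrp1b being lost. With the long-gene level subtracted 1 member, csf1ra, was called lower. Its log2 fold change was then -9.62, but both mutant libraries were at 0 reads, so that the size depends on the prior count, and tyr could not be tested. Without 1 library the log2 fold change of csf1ra ran from -0.023 to 0.35 and that of gch2 from -0.23 to 0.84, below 0 without mutant replicate 2 in both cases. Of 136 values of single members under alternatives, 117 kept direction and side of the threshold, 7 lost the call (all of tyrp1b), 9 gained it (pmela, tyr and mitfa) and 3 changed direction. The number of members detected in wild type, 5, was 9 with no TPM limit and 0 at a TPM of at least 5. In the mutants it was 9, and 4 at a TPM of at least 5. Replicate numbers were shared between groups, but nothing says that they pair samples, and deviations of same-numbered libraries correlated at -0.0761 across genes, which are not independent. The block lowered the calls over all genes from 12215 to 10978. They numbered 6034 with the long-gene level subtracted, 3143 with spans under 10 kb only, 7521 without mutant replicate 1 and 6285 without mutant replicate 2. In wild type dct and tyr lay below the long-gene level in both libraries, which limits what their reads can show.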
